A study of Homo sapiens with 6 samples.

Results

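The genes described here encode RNA polymerase II, which transcribes all protein-coding genes, and the complexes that load it, release it and process its transcripts. Members were the genes whose printed symbol carries a family name of these complexes: POLR2A to POLR2M, MED, TAF, GTF2A to GTF2H, INTS, SUPT, CPSF, CSTF, ELL, AFF, and the transcription kinases CDK7, CDK8, CDK9, CDK12, CDK13 and CDK19 with cyclins C, H, T and K. The authors' deposited tables listed 72 such genes of 7681 listed genes in all. The names match 151 protein-coding genes in RefSeq, of which 73 were listed by gene ID: the 72 and INTS15, which the tables print under its older symbol C7orf26. Of the 151, 78 were in neither table. Whether those 78 were tested and did not pass, or had too few reads, is unknown.

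The study profiled RNA from 3 cultures labelled Rab27B KO and 3 labelled wild type (WT) by sequencing. All 6 were untreated cultures of HCT116, a human colorectal carcinoma cell line, grown for 48 hours. In the Rab27B KO cells the gene for the small GTPase Rab27B was deleted by CRISPR/Cas9, per the design text. The sources used here do not say whether they were 1 clone or a pool. The data were 2 tables of the authors' comparison of Rab27B KO over WT, 1 of higher and 1 of lower genes, giving each gene's log2 fold change with a q-value (a p-value adjusted for many tests). Values per sample were not analysed here, so depth, levels and the spread between cultures are unknown, and the fold changes have no error. All q-values in both tables were below 0.05. The RAB27B transcript itself went against the label, with the authors' deposited table giving a 36.7-fold higher value for Rab27B KO. Whether the labels of the samples are turned round, or the direction of the ratio, or neither, is unknown. Each direction below is the one printed in the tables for the libraries labelled Rab27B KO; if the ratio itself is inverted, every higher gene becomes a lower one, and the 25 higher and 47 lower members become 47 higher and 25 lower. Of 6 epithelial identity genes, the authors' deposited tables listed KRT8 and KRT18 as higher, EPCAM, CDH1 and CDX2 as lower and VIL1 in neither. Since the tables hold changes and no levels, the identity of the cells could not be checked.

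Transcription by RNA polymerase II starts when the TFIID complex, built of the TATA-binding protein and TAF proteins, and the other general factors place the enzyme at a promoter. Mediator carries signals from activators bound at enhancers to the enzyme. The polymerase then pauses near the start site until the kinase CDK9 with cyclin T releases it, and elongation factors carry it through the gene. Integrator cuts small nuclear RNAs and ends transcription at many paused genes, while CPSF and CSTF recognise the polyadenylation signal and the sequence after it and cut the messenger RNA at its 3′ end.

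Most listed members were lower in the samples labelled Rab27B KO, by small amounts. The authors' deposited tables listed 25 members as higher and 47 as lower. Higher members were thus 34.7% of the listed members, beside 50.7% over all listed genes, and lower members 65.3%, beside 49.3%. Of the 151 RefSeq genes, INTS15 included, 48.3% were listed, beside 37.9% of all RefSeq protein-coding genes. By direction, 16.6% of the 151 were listed as higher and 31.8% as lower, beside 19.2% and 18.7% of all RefSeq protein-coding genes. Genes that are not expressed cannot be listed, and how many there are of them in either set is unknown. The median log2 fold change of the 72 members was -0.24, against 0.12 over all listed genes. Because the tables hold relative RNA values of whole cultures, fewer cells making a transcript and less of it per cell cannot be told apart.

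The sizes were modest next to those of other listed genes. The median absolute log2 fold change was 0.29 among members and 0.41 among all listed genes. An absolute log2 fold change of 0.5 or more was reached by 11 members (15.3%), 4 higher and 7 lower, beside 38.7% of all listed genes. None of the 72 reached 1, beside 12.6% of all listed genes. The largest rise was 1.70-fold, in TAF13, and the largest fall 1.75-fold, in MED28, in the authors' deposited table. The q-values of members were spread much like those of other genes: 83.3% were below 0.01 and 68.1% below 0.001, beside 84.9% and 70.0% of all listed genes.

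**Figure D1:**
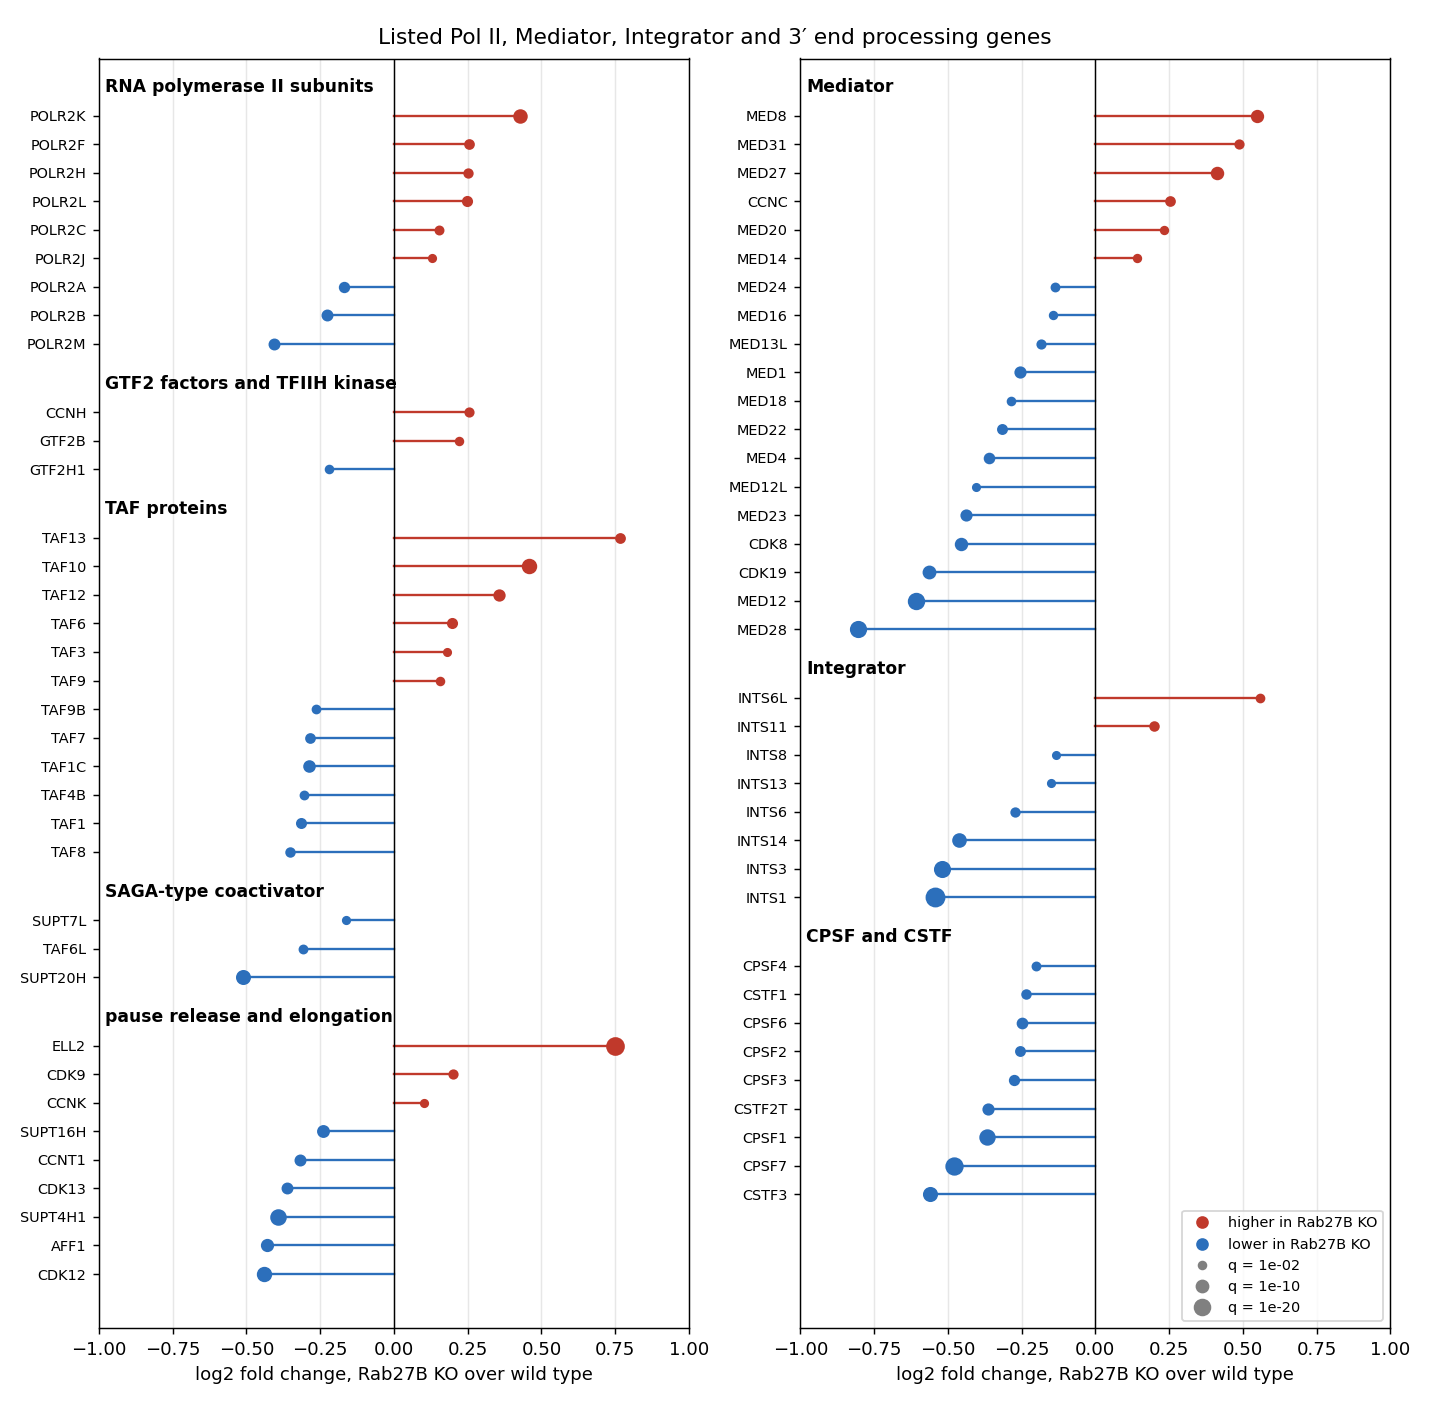
Log2 fold change (Rab27B KO over wild type) for each of the 72 listed members, by complex, with larger dots for smaller q-values (no error is known). All 9 CPSF and CSTF genes lie left of 0, the RNA polymerase II subunits and TAF proteins lie on both sides, and no gene reaches an absolute value of 1.

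**Figure D2:**
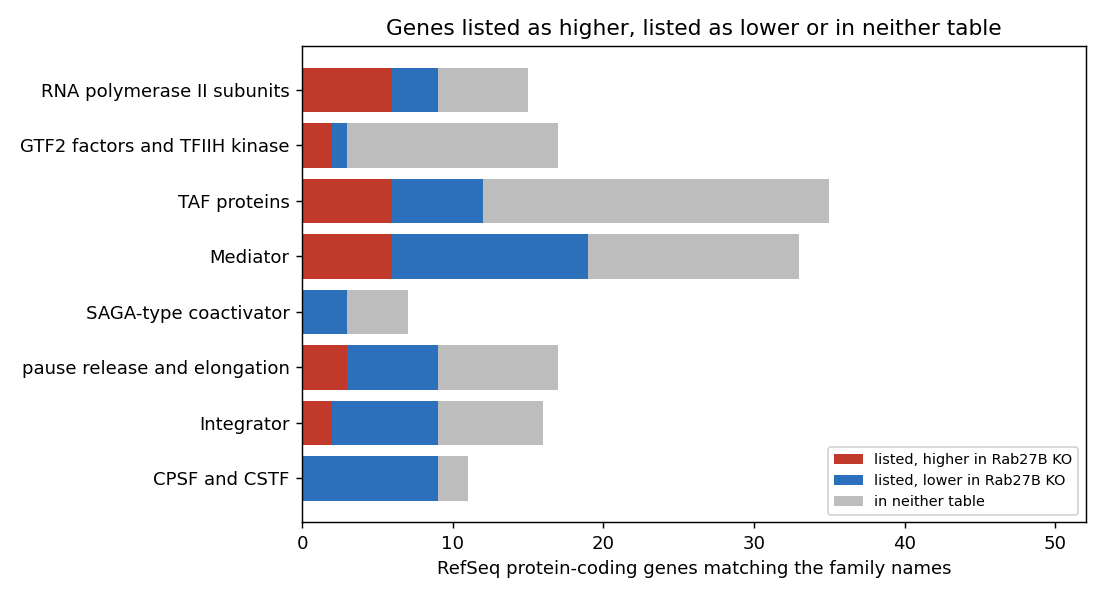
Number of RefSeq protein-coding genes in each complex that were listed by gene ID as higher, listed as lower or in neither table, with INTS15 among the lower. Only 3 of 17 genes of the GTF2 and TFIIH kinase group were listed, against 9 of 11 of CPSF and CSTF. Of all RefSeq protein-coding genes 37.9% were listed.

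Among the subunits of the polymerase the 2 largest were lower and 6 smaller ones higher. Of 15 annotated POLR2 genes 9 were listed, beside 37.9% of all RefSeq protein-coding genes. The 9 were 6 higher and 3 lower, beside 50.7% and 49.3% over all listed genes. Both subunits that form the catalytic cleft were lower: POLR2A, the largest subunit, whose repetitive tail is phosphorylated through the transcription cycle, had a log2 fold change of -0.17 (q = 1.05e-05) by the authors' deposited table. POLR2B, its large partner in the active site, stood at -0.23 (q = 8.36e-07) in the authors' deposited table. Of 5 subunits shared by RNA polymerases I, II and III, 4 were listed, all higher. POLR2K had a log2 fold change of 0.43 (q = 2.18e-12), POLR2F one of 0.25, POLR2H one of 0.25 and POLR2L one of 0.25 by the authors' deposited table. POLR2C and POLR2J, which form a dimer at the base of the assembling enzyme, were listed at 0.15 and 0.13 in the authors' deposited table. The third lower gene was POLR2M at -0.41 (q = 8.30e-07) in the authors' deposited table. Its product binds a fraction of the polymerase and makes it dependent on Mediator. The shared subunit POLR2E, the stalk subunits POLR2D and POLR2G, and POLR2I, POLR2J2 and POLR2J3 were in neither table. POLR2J has near-identical copies in POLR2J2 and POLR2J3, and POLR2M overlaps the gene GCOM1, so reads of either may have been split or shared.

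The promoter of the largest subunit is shown beside those of the member with the largest rise and of the 2 CPSF and CSTF members with the largest falls, so that the letters at their start sites can be read beside their changes. Sequences are from RefSeq (GRCh38.p14), run 5′ to 3′ on the gene's strand from 250 bases before to 50 bases after the annotated start farthest upstream, and capitals mark the motifs searched on both strands and spelled out below. They are POLR2A (chr17:7484116-7484415, plus strand, log2 fold change -0.17), TAF13 (chr1:109075954-109076253, minus strand, 0.77), CPSF7 (chr11:61429926-61430225, minus strand, -0.48) and CSTF3 (chr11:33161431-33161730, minus strand, -0.56), with the fold changes of the authors' deposited table.
POLR2A: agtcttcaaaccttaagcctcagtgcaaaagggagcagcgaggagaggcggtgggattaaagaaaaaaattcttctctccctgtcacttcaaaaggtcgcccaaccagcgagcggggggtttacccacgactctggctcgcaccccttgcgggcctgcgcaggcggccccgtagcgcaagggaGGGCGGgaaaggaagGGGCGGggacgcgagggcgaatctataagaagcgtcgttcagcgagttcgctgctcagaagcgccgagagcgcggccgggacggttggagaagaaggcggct
TAF13: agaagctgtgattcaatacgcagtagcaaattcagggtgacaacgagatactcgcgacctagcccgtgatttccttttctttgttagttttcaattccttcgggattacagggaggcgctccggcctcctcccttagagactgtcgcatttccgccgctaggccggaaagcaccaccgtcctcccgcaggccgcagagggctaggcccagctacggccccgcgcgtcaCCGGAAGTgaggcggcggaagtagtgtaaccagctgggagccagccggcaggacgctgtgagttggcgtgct
CPSF7: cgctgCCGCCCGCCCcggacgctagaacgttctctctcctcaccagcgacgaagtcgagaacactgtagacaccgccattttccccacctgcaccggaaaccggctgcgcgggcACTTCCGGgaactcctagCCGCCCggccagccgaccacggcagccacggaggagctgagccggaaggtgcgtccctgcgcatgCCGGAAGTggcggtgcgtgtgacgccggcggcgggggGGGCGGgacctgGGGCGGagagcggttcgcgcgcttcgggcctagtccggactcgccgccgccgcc
CSTF3: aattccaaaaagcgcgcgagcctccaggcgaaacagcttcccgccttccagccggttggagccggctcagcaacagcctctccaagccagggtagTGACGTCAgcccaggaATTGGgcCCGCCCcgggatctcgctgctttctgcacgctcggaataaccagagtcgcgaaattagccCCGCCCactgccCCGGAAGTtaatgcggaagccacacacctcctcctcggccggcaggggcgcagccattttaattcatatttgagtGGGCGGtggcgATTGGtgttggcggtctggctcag
The POLR2A promoter held 2 GC boxes and no other motif of the search. TAF13 held 1 ETS motif. CPSF7 held 2 ETS motifs and 5 GC boxes, of which 2 overlap, and CSTF3 held 1 ETS motif, 3 GC boxes, 2 CCAAT boxes and 1 CRE.

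Of the motifs searched, the GC box and the CCAAT box were in the most member promoters, and the ETS motif was in a minority of them but in a larger share than in all promoters. Promoters were found for 62 of the 72 members, 20 higher and 42 lower. The ETS motif (CCGGAAGT) was in 18 of 62, or 29.03%, beside 7.92% of the promoters of all listed genes and 6.16% of 15843 RefSeq protein-coding promoters. It was in 6 of 20 higher (30.0%) and 12 of 42 lower (28.6%) members. The CCAAT box (CCAAT) was in 5 of 20 higher (25.0%) and 22 of 42 lower (52.4%) members, or 43.55% of the 62, beside 36.4% of the promoters of all listed genes and 36.4% of all 15843. The GC box (GGGCGG) was in 62.9% of the members' promoters, above the 58.3% of all 15843 but below the 72.1% of the promoters of all listed genes. The TATA box (TATAAA) was in 6.45%, beside 5.67% of the promoters of all listed genes and 9.75% of all 15843. The YY1 motif (AGATGGCG) was in 5 and the CRE (TGACGTCA) in 4 of the 62 (8.06% and 6.45%), beside 4.67% and 3.15% of the promoters of all listed genes and 3.33% and 2.56% of all 15843. These letter matches describe sequence, and no test was made on them. No motif searched contains another.

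Few genes of the general initiation factors were listed. Of 17 annotated genes of the GTF2 family and the TFIIH kinase, 3 were listed, beside 37.9% of all RefSeq protein-coding genes. The 17 include the copies GTF2A1L, GTF2H2C and GTF2H2C_2, all in neither table. GTF2B, which encodes TFIIB and bridges the promoter complex to the polymerase, was higher at a log2 fold change of 0.22 (q = 0.0137) by the authors' deposited table. CCNH, the cyclin of the TFIIH kinase, was higher at 0.25 in the authors' deposited table, while its kinase CDK7 was in neither table. GTF2H1, a core subunit of TFIIH, was lower at -0.22 in the authors' deposited table. The genes for TFIIA, TFIIE and TFIIF (GTF2A1, GTF2A2, GTF2E1, GTF2E2, GTF2F1 and GTF2F2) were in neither table. GTF2H2 and GTF2H2C are near-identical copies and were not listed either.

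The TAF genes were listed in equal numbers in both directions. Of 35 annotated TAF genes of this group, 13 of which are TAF11-like copies, 12 were listed, beside 37.9% of all RefSeq protein-coding genes. The 12 were 6 higher and 6 lower, beside 50.7% and 49.3% over all listed genes. The 3 with the largest rises encode small proteins with a histone fold: TAF13 at a log2 fold change of 0.77 (q = 9.98e-05), TAF10 at 0.46 (q = 9.26e-15) and TAF12 at 0.36 (q = 1.51e-07) by the authors' deposited table. TAF6, TAF9 and TAF3, which reads a histone mark of active promoters, had log2 fold changes of 0.20, 0.15 and 0.18 by the authors' deposited table. The scaffold TAF1, the largest subunit of TFIID, was lower at -0.31 in the authors' deposited table. TAF8 stood at -0.35, TAF4B at -0.30, TAF7 at -0.28 and TAF9B at -0.26 in the authors' deposited table. The remaining lower gene, TAF1C at -0.29 (q = 4.31e-08) in the authors' deposited table, belongs to the RNA polymerase I factor SL1 and not to TFIID. TAF9 overlaps AK6, with which it shares a locus, and its value may include reads of that gene. In all, 28 of the 72 members are overlapped by another protein-coding gene, and the same may hold for them. TAF2, TAF4, TAF5 and TAF11 were in neither table.

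SAGA is a coactivator that shares several TAF proteins with TFIID. Shared subunits were counted with the TAF genes above, among them TAF9, TAF10 and TAF12, all higher, and TAF9B, lower. Of the 7 annotated genes grouped here under SAGA alone, 3 were listed, beside 37.9% of all RefSeq protein-coding genes. All 3 were lower, beside 49.3% over all listed genes. SUPT20H, a scaffold of the complex, had a log2 fold change of -0.51 (q = 1.06e-13), TAF6L one of -0.31 and SUPT7L one of -0.16 by the authors' deposited table. SUPT20H lies on chromosome 13, where 128 of all 148 listed genes were lower.

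Mediator held the largest fall, and its listed genes were mostly lower. Of 33 annotated genes, counting the kinase module, 19 were listed, beside 37.9% of all RefSeq protein-coding genes. The 19 were 6 higher and 13 lower, beside 50.7% and 49.3% over all listed genes. The median log2 fold change of the 19 was -0.26. In the kinase module, a detachable part that restrains or tunes the core, 6 of 7 genes were listed, 5 of them lower. MED12, which activates the module's kinase, had a log2 fold change of -0.61 (q = 3.58e-20) by the authors' deposited table. The kinase CDK19 stood at -0.56 and its paralog CDK8 at -0.45 in the authors' deposited table. MED12L was listed at -0.41, with a q-value of only 0.0469, and MED13L at -0.18 in the authors' deposited table. Cyclin C (CCNC), the partner of both kinases, was the exception at 0.25 (q = 1.38e-04) in the authors' deposited table. MED13 was in neither table.

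Without the kinase module, 13 of 26 Mediator genes were listed, beside 37.9% of all RefSeq protein-coding genes. The 13 were 5 higher and 8 lower, beside 50.7% and 49.3% over all listed genes. MED28 had the largest fall of all members, a log2 fold change of -0.81 (q = 1.18e-19) by the authors' deposited table. It lies on chromosome 4, where 248 of all 298 listed genes were lower. MED23, a tail subunit contacted by activators, and MED4, of the middle part, stood at -0.44 and -0.36 in the authors' deposited table. MED1, the subunit bound by nuclear receptors, was 1.19-fold lower (q = 2.29e-07) in the authors' deposited table. MED22 and MED18, of the head, were at -0.32 and -0.29, and the tail subunits MED16 and MED24 each at -0.14, in the authors' deposited table. Rises were listed for the head subunit MED8 at 0.55 (q = 1.19e-09), MED31 at 0.49, MED27 at 0.41 (q = 5.55e-10) and MED20 at 0.23 in the authors' deposited table. MED14, the backbone that joins head, middle and tail, was also listed as higher, at 0.14 (q = 0.0199) in the authors' deposited table. Among the genes in neither table were MED15, MED17, MED25 and MED26.

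The kinases that act on the polymerase and their cyclins did not move as pairs. Of 6 kinase genes 5 were listed, 1 higher and 4 lower, and of 5 cyclin genes 4 were listed, 3 higher and 1 lower. Over all listed genes 50.7% were higher and 49.3% lower, and 37.9% of all RefSeq protein-coding genes were listed. CDK9, the kinase of the pause-release factor P-TEFb, was higher at 0.20 (q = 8.37e-04), while its cyclin CCNT1 was lower at -0.32 (q = 6.87e-07) in the authors' deposited table. CDK12 and CDK13, which phosphorylate the elongating polymerase, were lower at -0.44 (q = 1.53e-14) and -0.36 in the authors' deposited table. Their cyclin CCNK was higher at only 0.10 (q = 0.0349) in the authors' deposited table, the smallest change of any member. CCNT2 was in neither table. The 4 lower kinase genes are long: the RefSeq spans were 106074 bases for CDK12, 149325 for CDK13, 151110 for CDK8 and 205878 for CDK19, against 4759 for CDK9. Long spans were also found among higher members, such as MED27 (219756 bases) and TAF3 (198127 bases). The part of span was not tested.

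**Figure D3:**
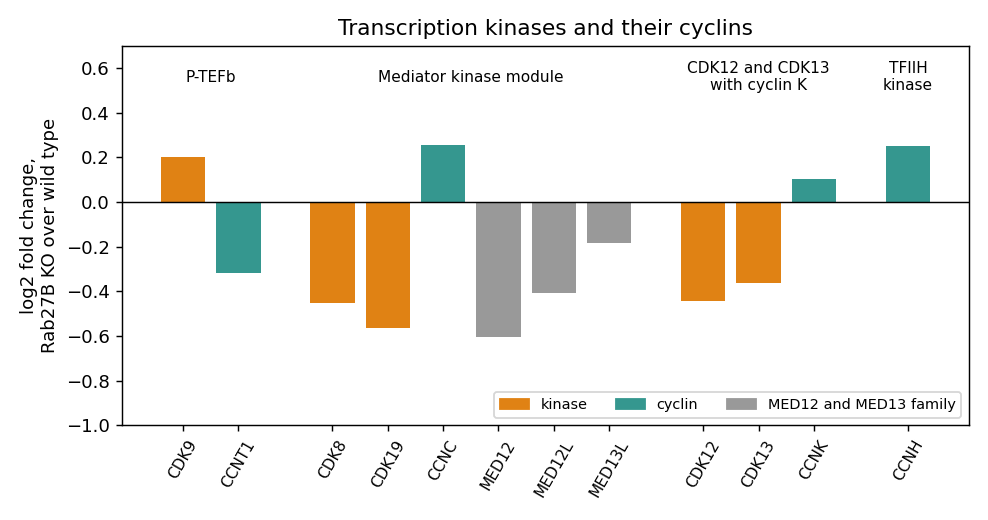
Log2 fold change (Rab27B KO over wild type) for the listed transcription kinases, their cyclins and the MED12 and MED13 family genes (bars start at 0, no error is known). Bars of the kinases CDK8, CDK19, CDK12 and CDK13 point down and those of their cyclins CCNC and CCNK up, while CDK9 and CCNT1 are the other way round.

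Of the 4 listed members that are elongation factors outside the kinases and cyclins, ELL2 was higher and 3 were lower. ELL2, an elongation factor of the super elongation complex, was 1.68-fold higher, a log2 fold change of 0.75 (q = 2.71e-24) by the authors' deposited table. AFF1, a scaffold of the same complex, stood at -0.43 (q = 1.88e-09) in the authors' deposited table. Its paralog AFF4 and the genes ELL and ELL3 were in neither table. SUPT4H1, the small subunit of the pausing and processivity factor DSIF, was lower at -0.39 (q = 8.52e-18) in the authors' deposited table, and its partner SUPT5H was in neither table. SUPT16H, of the histone chaperone FACT, was lower at -0.24 (q = 9.50e-09) in the authors' deposited table. SUPT6H, another histone chaperone of elongation, was in neither table. Of the 9 listed genes of pause release and elongation, kinases included, 3 were higher and 6 lower, beside 50.7% and 49.3% of all listed genes.

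Integrator had 9 of 16 annotated genes listed by gene ID, beside 37.9% of all RefSeq protein-coding genes. The 9 were 2 higher and 7 lower, 1 of the lower being INTS15, beside 50.7% and 49.3% over all listed genes. The largest falls were in INTS1, the largest subunit, at -0.54 (q = 3.58e-28), INTS3 at -0.52 (q = 2.46e-19) and INTS14 at -0.46 (q = 1.03e-12) in the authors' deposited table. The q-value of INTS1 was the smallest of all 72 members. INTS6 was lower at -0.27, and INTS13 and INTS8 were at -0.15 and -0.14, in the authors' deposited table. INTS11, the endonuclease that cuts the RNA, was higher at 0.20 (q = 3.07e-04) in the authors' deposited table. INTS9, its partner in the cleavage module, was in neither table, as were INTS2, INTS4, INTS5, INTS7, INTS10 and INTS12. INTS6L, a paralog of INTS6, was higher at 0.56 with a q-value of 0.00581 in the authors' deposited table, a large change for so weak a q-value among the members. INTS15, printed as C7orf26, was lower at -0.44 in the authors' deposited table. It is not counted among the 72 or in their medians.

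The 3′ end processing factors were listed in 1 direction, as were the 3 genes grouped under SAGA alone, though not the TAF genes that SAGA shares. Of 11 annotated CPSF and CSTF genes 9 were listed, beside 37.9% of all RefSeq protein-coding genes. All 9 were lower, beside 49.3% over all listed genes, with log2 fold changes between -0.56 and -0.20. CSTF3, the scaffold of the cleavage stimulation factor, stood at -0.56 (q = 7.06e-14), CSTF2T, a paralog of its RNA-binding subunit, at -0.36 and CSTF1 at -0.24 in the authors' deposited table. CPSF7 and CPSF6, which with NUDT21 form the factor that favours distant polyadenylation sites, were at -0.48 (q = 4.46e-23) and -0.25 in the authors' deposited table. CPSF1, the largest subunit of the signal-recognition complex, was at -0.37 (q = 2.27e-17) in the authors' deposited table. The endonuclease gene CPSF3 was at -0.27, its inactive partner CPSF2 at -0.25 and the zinc-finger subunit CPSF4 at -0.20 in the authors' deposited table. CSTF2 and CPSF4L were in neither table.

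The same held for a list of 13 further 3′ end factors that no family name covers. The authors' deposited tables listed 10 of them, all lower, with a median log2 fold change of -0.35, against 0.12 over all listed genes. SCAF8, which binds the tail of the polymerase and restrains early termination, was the lowest at -1.21 (q = 2.16e-68) in the authors' deposited table. NUDT21, the partner of CPSF6 and CPSF7, was at -0.38 and XRN2, the nuclease that ends transcription after cleavage, at -0.33 in the authors' deposited table. FIP1L1, PCF11, SYMPK and WDR33 were at -0.40, -0.34, -0.24 and -0.24 in the authors' deposited table. SCAF4, RBBP6 and PABPN1 were listed at -0.38, -0.36 and -0.11 in the authors' deposited table. CLP1, PAPOLA and PAPOLG were in neither table. With CPSF and CSTF this made 19 lower and 0 higher genes, beside 49.3% lower over all listed genes. This list was chosen with earlier results of these data known and holds partners of the CPSF and CSTF genes. It is therefore no independent evidence beside them, and no test of the whole was made.

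Other partners of the polymerase went both ways. The list of transcription partners was chosen with earlier results of these data known. Outside RNA polymerases I and III, 48 of its 74 genes were listed, beside 37.9% of all RefSeq protein-coding genes. They were 16 higher and 32 lower, beside 50.7% and 49.3% over all listed genes. Of the lower ones, 10 were the 3′ end factors above, and INTS15 was already counted with Integrator. DRAP1 and DR1, which together form a repressor that binds the TATA-binding protein, were higher at 0.57 (q = 3.12e-22) and 0.25 in the authors' deposited table. The phosphatase genes CTDSPL and SSU72 were higher at 0.56 (q = 1.97e-20) and 0.35 (q = 5.32e-13) in the authors' deposited table. ICE2, of the little elongation complex at small nuclear RNA genes, was lower at -0.85 (q = 6.94e-31) in the authors' deposited table. SSRP1, the partner of SUPT16H in FACT, was lower at -0.38 (q = 2.82e-29), and BRAT1, a partner of the Integrator cleavage module, at -0.62 (q = 4.44e-26), in the authors' deposited table. Of 9 genes of the PAF1 complex and chromatin partners, 1 was listed as higher and 5 as lower. Among 11 genes of NELF, BRD proteins and P-TEFb control, 1 was higher and 5 were lower. Of 13 genes of Elongin and super elongation partners, 6 were higher and 4 lower. TCEA3 and TCEA2, which help a stalled polymerase to resume, were higher at 0.98 and 0.55 in the authors' deposited table. EAF2 and MLLT3, partners in the super elongation complex, were higher at 0.83 (q = 0.0135) and 0.68 in the authors' deposited table. MLLT1, the paralog of MLLT3, was lower at -0.27 (q = 6.41e-07) in the authors' deposited table, and ICE1, ICE2 and ZC3H8 were the other lower genes of this list. The Elongin subunits ELOC and ELOB were higher at 0.33 and 0.30 in the authors' deposited table.

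Of the paralog pairs with both copies listed, 4 went the same way and 3 went opposite ways. CDK8 and CDK19, CDK12 and CDK13, MED12 and MED12L, and CPSF6 and CPSF7 were lower together. TAF9 and TAF9B went opposite ways, at 0.15 and -0.26, TAF6 and TAF6L at 0.20 and -0.31, and INTS6L and INTS6 at 0.56 and -0.27, in the authors' deposited table. In other families 1 copy was listed and the closest copy was in neither table. Examples were CSTF2T, TAF4B, MED13L, CCNT1 and AFF1, which were lower, and ELL2 and POLR2J, which were higher. Reads shared between copies could shift these values, and how multi-mapped reads were counted was not given in the sources used here.

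Transcript length went with direction among the members. The longest annotated transcript had a median of 2057 bases in higher members and 4488 bases in lower members, against 2849 and 4312 bases over all listed genes. All 9 members under 1500 bases were higher (POLR2J, POLR2K, POLR2L, TAF9, TAF10, TAF12, TAF13, GTF2B and MED27), beside 78.9% of all listed genes of that length. From 1500 to under 3000 bases 11 of 23 members were higher (47.8%), beside 62.8% of all listed genes. From 3000 to under 6000 bases 3 of 22 were higher (13.6%), beside 44.9%, and at 6000 bases or more 2 of 18 (11.1%), beside 30.2%. The last 2 were ELL2 and MED14. Spearman's rho of transcript length with log2 fold change was -0.52 over the 72 members and -0.28 over 7610 listed genes, across genes of the same libraries, which are not independent replicates. The part of length in the members' directions was not tested. CPSF and CSTF genes had transcripts of 1738 to 13035 bases, with a median of 4105, and 7 of the 9 had 3000 bases or more. Gene span showed a weaker relation (rho -0.22 over the 72 members, beside -0.21 over all listed genes). With transcript GC content rho was 0.00 over the members, beside 0.15 over all listed genes.

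**Figure D4:**
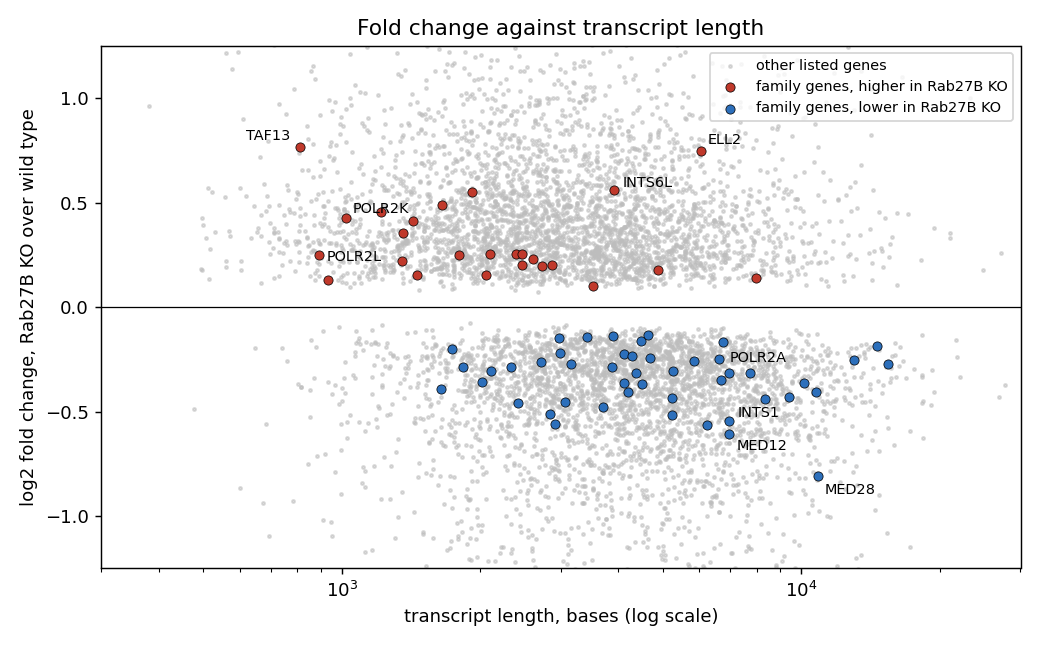
Log2 fold change (Rab27B KO over wild type) against the longest annotated transcript of each listed gene (log scale), with the 72 members coloured by direction and other listed genes in grey. Members at the short end, such as TAF13 and POLR2L, lie above 0, and most long ones, such as MED28 and INTS1, below it, with ELL2 and MED14 as long members above 0.

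**Figure D5:**
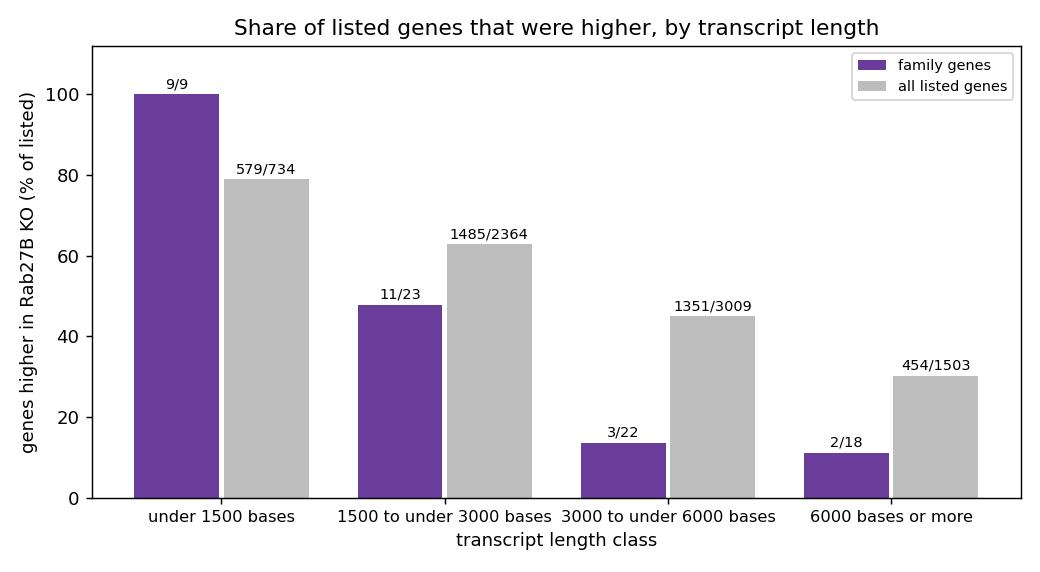
Share of listed genes that were higher in the samples labelled Rab27B KO, by class of transcript length, for members and for all listed genes, with counts above the bars. The members' share is 100% in the shortest class and lies below that of all listed genes in the other 3.

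Chromosome position moved with direction as well. Chromosomes 4, 7, 13 and 15 were set apart for their low share of higher genes in these same data. Their low share was thus fixed by the choice. Chromosome 21 was not set apart, although only 36.2% of its 58 listed genes were higher, and it held no listed member. On chromosomes 4, 7, 13 and 15, where only 22.9% of all 1103 listed genes were higher, 14 members were listed, 2 higher and 12 lower. The 2 were POLR2J and TAF6, both on chromosome 7. The lower ones were AFF1, MED28 and POLR2B on chromosome 4, CDK13, CPSF4 and INTS1 on chromosome 7, CDK8, INTS6, MED4 and SUPT20H on chromosome 13, and INTS14 and POLR2M on chromosome 15. On all other chromosomes 23 of 58 members were higher (39.7%), beside 55.4% of 6578 listed genes. The members' share of higher genes was thus below that of all listed genes on the other chromosomes. On chromosomes 4, 7, 13 and 15 it was 14.3%, near the 22.9% of all listed genes for only 14 members. The part of chromosome position in the members' directions was not tested.

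Neighbours that share a start region with a member were listed in the opposite direction about as often as in the same one. In RefSeq, 18 members' starts faced that of another protein-coding gene on the opposite strand within 1000 bases, and in 11 of these pairs both genes were listed. They went the same way in 5 pairs and opposite ways in 6, that is 45.5% alike, beside 65.6% of all 212 such pairs with both genes listed. The opposite pairs included 3 with CPSF genes. CPSF2 was at -0.25 and NDUFB1, 263 bases away, at 0.36, in the authors' deposited table. CPSF3 was at -0.27 and ITGB1BP1 at 0.33, and CPSF4 at -0.20 and PTCD1 at 0.23, in the authors' deposited table. CPSF4 is also overlapped by the gene ATP5MF-PTCD1, so reads may have been shared. POLR2A at -0.17 faced ZBTB4 at 0.15 in the authors' deposited table. Among the pairs that went together, POLR2L at 0.25 faced TSPAN4 at 0.83 and INTS14 at -0.46 faced SLC24A1 at -0.79 in the authors' deposited table.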

How the data were processed

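RNA from 3 Rab27B KO and 3 wild-type HCT116 cultures was sequenced on the DNBSEQ platform, per the labels' protocols. Per the submitters' processing notes, HISAT, Bowtie2 and GRCh38 were used; roles, counting, scaling and test were not given in the sources used here. Deposited by the authors were log2 fold changes of Rab27B KO over wild type and q-values, and in the table of higher genes also the linear ratio, per the file headers. No counts were given, so depth is unknown, and the planned test on the authors' q-values below 0.05 was used with none added. Longer and more abundant transcripts reach a small q-value more easily. The labels call the samples biological replicates.

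Members were matched by printed symbol. Complexes were assigned by symbol, with cyclins and kinases placed by their known partners. Gene IDs were matched to RefSeq (GRCh38.p14), 7656 of 7681. RefSeq protein-coding genes (20056) served as the background of annotated genes, since the number tested is unknown. Transcript length and GC content are those of the longest protein-coding or processed transcript in GENCODE release 29, which need not be the one expressed. The members and lists were chosen with earlier results of these data known. Named by a fixed rule were the POLR2 genes, kinases, cyclins, paralogs, and the largest changes and smallest q-values of each complex; the other genes and the neighbours were named after their values were seen. The counting was tested on simulated data. Alternatives were stricter q-values, a minimum change, RefSeq symbols, no SL1 genes and no chromosomes 4, 7, 13 and 15. These chromosomes were picked for their low share of higher genes in the same data. Python 3.11.15, pandas 2.3.3, numpy 2.4.6 and matplotlib 3.10.9 were used.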

Additional observations from a re-analysis of the deposited data

How the results depend on the processing

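Lower members outnumbered higher ones under each of the 6 alternatives. Higher and lower members numbered 18 and 42 at a q-value below 0.01 (30.0% higher, beside 51.1% of all listed genes). At one below 0.001 they numbered 15 and 34 (30.6%, beside 51.5%). At an absolute log2 fold change of at least 0.5 they numbered 4 and 7 (36.4%, beside 50.7%), with few members left. Without chromosomes 4, 7, 13 and 15 they numbered 23 and 35 (39.7%, beside 55.4%). By RefSeq symbol the counts were 25 and 48, and without TAF1C, the only SL1 gene listed, 25 and 46. At a minimum change of 0.5 few genes were left in any complex, since most changes were small: higher and lower genes numbered 0 and 0 for the RNA polymerase II subunits, 0 and 0 for the GTF2 group, 1 and 0 for the TAF proteins, 1 and 3 for Mediator, 0 and 1 for SAGA, 1 and 0 for pause release and elongation, 1 and 2 for Integrator and 0 and 1 for CPSF and CSTF. Without chromosomes 4, 7, 13 and 15, RNA polymerase II subunits numbered 5 higher and 1 lower (POLR2A), beside 6 and 3 with them. Integrator genes numbered 2 higher and 3 lower, beside 2 and 6 with them. The part of chromosome position in these counts was not tested. At a q-value below 0.01 only 1 GTF2 group gene was higher. The other 40 of 60 alternative counts were within 1.5 times the reported one. No paired analysis was possible because the tables carry no values per sample, and for the same reason no replicate could be left out and no other normalization or filter tried. Depth limits what genes in neither table can show: their absence does not show that they did not change.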

Other observations

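The genes of RNA polymerases I and III, which make ribosomal and transfer RNA, were also listed in both directions. Of 29 such genes 18 were listed, beside 37.9% of all RefSeq protein-coding genes. They were 6 higher and 12 lower, beside 50.7% and 49.3% over all listed genes, with a median log2 fold change of -0.21. POLR3G, a polymerase III subunit typical of stem and tumour cells, stood at a log2 value of 0.90 (q = 1.99e-43) and its paralog POLR3GL at 0.59 in the authors' deposited table. The largest subunit of polymerase I, POLR1A, was lower at -0.40 (q = 9.83e-19), as was GTF3C4 at -0.37, in the authors' deposited table. POLR3K and POLR3F, small subunits of polymerase III, were higher at 0.32 and 0.35 in the authors' deposited table. The genes named here other than POLR3G were chosen after their values were seen.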
